A study of Mus musculus with 8 samples.

Results

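Neprilysin and 7 other membrane-bound peptidases, most of which cut peptides at the cell surface, were described in mouse embryonic fibroblasts (MEFs) with and without SLMAP3. The 8 genes, Mme, Anpep, Dpp4, Fap, Ece1, Ece2, Enpep and Ace, were taken by gene name from a table of 55401 genes, and 6 of them were among the 15461 genes that passed the filter on low counts and were tested. They were chosen by their function with the genotype differences in these same counts already known, the difference of Mme in particular, so the levels of these 8 genes in SLMAP3-/- and WT lines are given as a description and without a test. RNA was measured in 8 lines, 1 library per line. The 4 SLMAP3-/- lines carried a knockout made by recombination of a floxed exon with a CMV-driven Cre, and the other 4 were WT. All 8 came from different E14.5 embryos, were of the B6C3F1 strain and had been immortalized with SV40 large T antigen, so that the controls carried the same viral protein, and the labels do not say whether a line was a clone.

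Most of these enzymes sit in the plasma membrane with the catalytic domain outside the cell, where they activate or destroy signalling peptides. Neprilysin (Mme, also known as CD10) is a zinc endopeptidase of the M13 family that degrades enkephalins, substance P, bradykinin, natriuretic peptides and amyloid-beta, and it is a familiar surface marker of stromal cells and of lymphoid precursors. Ece1 and Ece2 encode the endothelin-converting enzymes of the same family, Ace makes angiotensin II, Anpep and Enpep are aminopeptidases of the M1 family, and Dpp4 and Fap are serine peptidases of the S9 family that remove dipeptides ending in proline.

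The coding sequence around the catalytic motif is shown for each enzyme, since it is what sets the zinc peptidases apart from the serine peptidases. Sequences are from GENCODE M21 on GRCm38, read 5′ to 3′ on the coding strand. Capitals mark the 5 codons of the zinc-binding motif (histidine, glutamate, any pair of residues, histidine) in the first group.
Mme: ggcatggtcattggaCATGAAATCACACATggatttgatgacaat
Ece1: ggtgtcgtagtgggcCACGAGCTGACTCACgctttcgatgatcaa
Ece2: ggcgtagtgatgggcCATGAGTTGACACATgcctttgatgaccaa
Anpep: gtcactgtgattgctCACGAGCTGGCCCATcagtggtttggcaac
Enpep: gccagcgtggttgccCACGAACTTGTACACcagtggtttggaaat
Ace, first domain: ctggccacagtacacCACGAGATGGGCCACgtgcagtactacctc
Ace, second domain: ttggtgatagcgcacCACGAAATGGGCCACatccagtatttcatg

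In Dpp4 and Fap the capitals mark the 5 codons around the catalytic serine (glycine, tryptophan, serine, tyrosine, glycine).
Dpp4: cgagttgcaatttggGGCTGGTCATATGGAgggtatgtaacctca
Fap: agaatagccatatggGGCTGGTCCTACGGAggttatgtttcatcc

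The zinc motif of Mme starts at codon 584 of 750 and lies in exon 18 of 23, at chr3:63362021-63362035 on the plus strand. The M13 enzymes carry it in nearly the same place, at codon 590 of 753 in Ece1 and codon 600 of 763 in Ece2. The M1 aminopeptidases have it further forward, at codon 387 of 966 in Anpep and codon 385 of 945 in Enpep, both in exon 5 of 20. Ace holds it in 2 copies, at codons 395 and 993 of 1312, 1 in each of its catalytic domains. The serine motif begins at codon 622 in both Dpp4 and Fap, where it is split between exons 21 and 22 of 26.

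Mme spans chromosome 3 from 63241537 to 63386030 on the plus strand, and Enpep lies on the minus strand of the same chromosome from 129269175 to 129332720. Ece1 (chromosome 4, 137862237 to 137965229) and Ace (chromosome 11, 105967945 to 105989964) are on plus strands, and Anpep (chromosome 7, 79821803 to 79861059) is on a minus strand. Dpp4 (chromosome 2, 62330073 to 62412231) and Fap (62500943 to 62574075) are neighbours on the minus strand, 88.7 kb apart with 3 annotated genes between them. Ece2 (chromosome 16, 20629828 to 20646485) shares a stretch of 2937 bases with the read-through gene Gm49333, and its count could have been split with it, although Gm49333 had no more than 10 counts in any line. Exons of Dpp4 and Ace overlap antisense genes, Gm13561 and Gm11651, that were at 0 in every line. Ece2 was the only one of the 8 with exons overlapped by another gene on its own strand.

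Total estimated counts ranged from 49879060 to 63322490 per line. The targeted gene, Slmap, averaged 38.3 ± 4.94 CPM (SD, n = 4) after knockout against 137 ± 8.60 CPM (SD, n = 4) in WT (adjusted p = 0.00119, edgeR's quasi-likelihood test), and it was the only gene called at an adjusted p under 0.05, which is 0.00647% of those tested. All 10 fibroblast markers were detected, with a summed level per line of 15715 to 21393 CPM without SLMAP3 and 18614 to 23453 CPM with it, although Dcn and Lum fell as low as 20 and 7 counts in a line. Most markers of other cell types were scarce or absent. Pecam1 and Cdh5 of endothelium did not exceed 12 and 10 counts, although the endothelial list summed to 16.6 to 40.5 CPM against 9.47 to 27.5 CPM in WT, mainly from Kdr and Tek. Ptprc of blood cells did not exceed 9 counts, and Myod1 of skeletal muscle was at 0 throughout. The summed lists of epithelium (0.848 to 1.59 CPM against 0.580 to 2.08), blood cells (0.723 to 1.34 against 0.435 to 1.16) and glia and neurons (10.9 to 22.9 against 9.54 to 17.4) overlapped between the genotypes. The level of the glia and neuron list came mainly from Tubb3, at 14.7 ± 5.21 CPM (SD, n = 4) against 13.7 ± 3.67 (SD, n = 4) in WT.

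Mme was the member that set the genotypes apart. The SLMAP3-/- lines had 155, 183, 172 and 220 CPM (estimated counts after scaling each library by TMM) in replicates 1 to 4. The WT lines had 57.9, 112, 112 and 97.0 CPM. Every SLMAP3-/- line lay above every WT line, and WT replicate 1 was the lowest of all 8. The means were 182 ± 27.5 CPM (SD, n = 4) and 94.6 ± 25.4 CPM (SD, n = 4), or 1.93-fold, with a log2 fold change (log2FC, SLMAP3-/- over WT) of 0.95 and a standard error, SE, of 0.21. These values rest on at least 3591 counts per line, so the spread between lines and not counting error limits them. Such a separation, with all SLMAP3-/- lines above all WT lines, was seen for 112 of the tested genes, or 0.724%, and the reverse for 82, or 0.53%. Among the 6 tested peptidases it was seen for Mme in the first direction and for 0 in the second, but since this contrast was in view when the genes were chosen nothing is read from that count.

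The summed mural-cell markers lay apart by genotype in the opposite direction to Mme. Its 4 genes together had 146 to 210 CPM in the SLMAP3-/- group against 221 to 314 CPM in the WT group, nearly all of it from Cspg4, a proteoglycan that fibroblasts also make. Notch3 averaged 9.75 ± 6.06 CPM (SD, n = 4) in SLMAP3-/- and 12.6 ± 6.72 CPM (SD, n = 4) in WT lines. Rgs5 did not exceed 122 counts in any line, and Kcnj8 did not exceed 1. The part of such differences in the Mme result was not tested, and a change in the share of cells that express a gene cannot be told apart from a change in RNA per cell in these bulk libraries. Y-linked genes were expressed in 2 lines, SLMAP3-/- replicate 2 and WT replicate 3, and with their expression as a covariate the log2FC of Mme was 0.95.

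**Figure D1:**
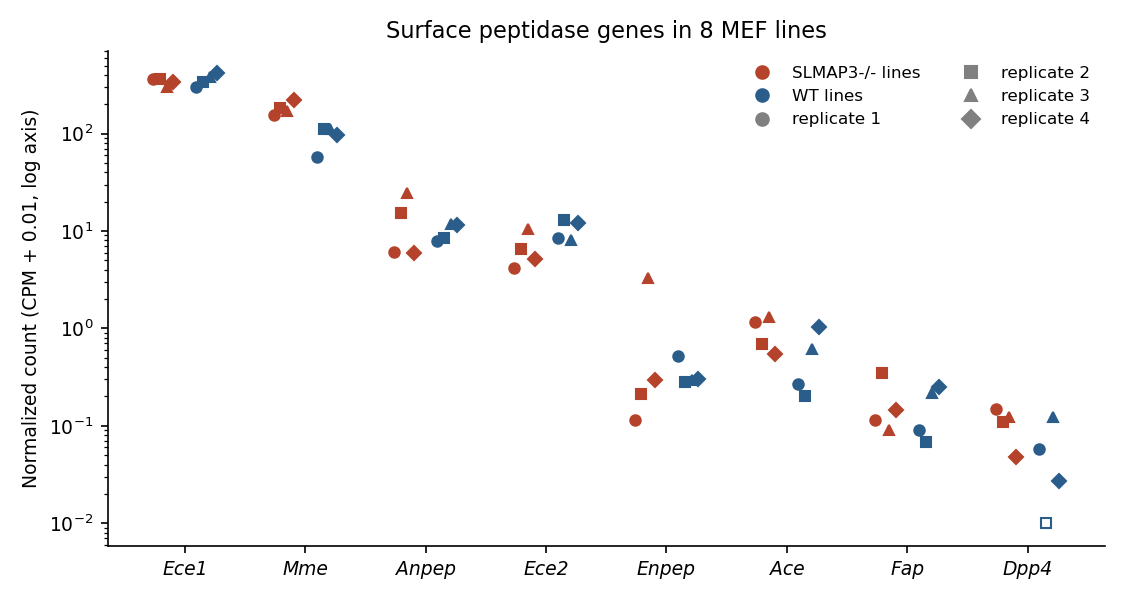
Normalized count (CPM + 0.01, log axis) of the 8 peptidase genes in each of the 4 SLMAP3-/- lines (red) and 4 WT lines (blue), with a marker shape for each replicate number and an open symbol for a count of 0. Genes are ordered by their level per kilobase. Mme shows 155 to 220 CPM in the SLMAP3-/- group against 57.9 to 112 in the WT group, and Enpep stands out in SLMAP3-/- replicate 3 at 3.31 CPM.

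Ece1, which converts big endothelin to the active peptide, was the most abundant member and the steadiest. It had 367, 361, 303 and 342 CPM in SLMAP3-/- replicates 1 to 4 and 300, 336, 380 and 416 CPM in WT replicates 1 to 4, so the genotypes overlapped over most of their range. Its log2FC of -0.060 (SE 0.12) moved between -0.13 and 0.022 on leaving out single lines. Its relative Ece2, found mainly in neural and endocrine tissue, was far lower, at 4.12, 6.52, 10.5 and 5.14 CPM in SLMAP3-/- lines and 8.47, 13.1, 7.98 and 12.2 CPM in WT lines. SLMAP3-/- replicate 3 lay among the WT lines while the other SLMAP3-/- lines lay below them all, and the log2FC was -0.67 (SE 0.31). Within the M13 family Mme was thus higher, Ece2 lower and Ece1 nearly level in SLMAP3-/- lines, as values without a test.

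Relative to Ece1 in the same library, Mme stood at 0.422, 0.507, 0.568 and 0.643 in SLMAP3-/- replicates 1 to 4. In WT replicates 1 to 4 this ratio of CPM was 0.193, 0.332, 0.295 and 0.233. The ratio does not depend on how libraries were scaled, and its highest WT value was below its lowest SLMAP3-/- value. It reuses the Mme values that were in view when the genes were chosen, so this separation is no further support.

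**Figure D2:**
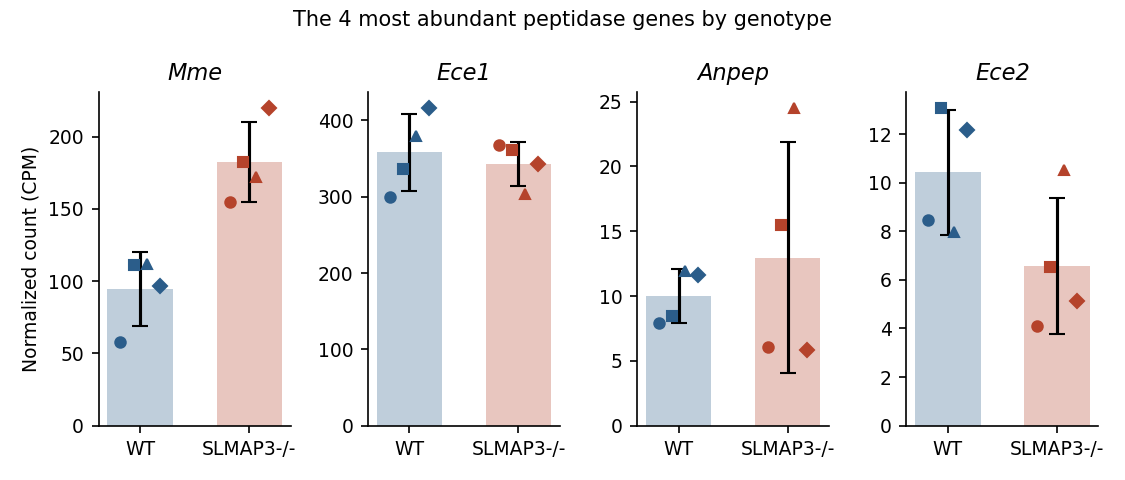
Normalized count in CPM of the 4 most abundant peptidase genes, with a bar for the mean of 4 WT or 4 SLMAP3-/- lines, an error bar of 1 SD and a point for each line (circle, square, triangle and diamond for replicates 1 to 4). Only Mme, at 182 against 94.6 CPM, has no overlap between the genotypes, while the Anpep bar of the SLMAP3-/- lines carries an SD of 8.91 CPM.

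Anpep, an aminopeptidase that trims neutral residues and is also called CD13, varied more between SLMAP3-/- lines than between WT lines. It was at 6.04, 15.4, 24.5 and 5.87 CPM in SLMAP3-/- lines and at 7.95, 8.47, 11.9 and 11.6 CPM in WT lines, so 2 SLMAP3-/- lines lay below all WT lines and 2 above. The log2FC of 0.38 (SE 0.46) became -0.13 without SLMAP3-/- replicate 3. Enpep, the aminopeptidase that converts angiotensin II to angiotensin III, was close to absent in 7 lines. Its estimated counts were 6, 10 and 15 in SLMAP3-/- replicates 1, 2 and 4 and 14 to 32 in WT lines, against 206 in SLMAP3-/- replicate 3. That line alone gave the log2FC of 1.52 (SE 1.02), which was -0.79 without it.

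Ace was low in every line, with 67, 34, 81 and 28 counts in SLMAP3-/- replicates 1 to 4 and 16, 10, 32 and 60 in WT replicates 1 to 4. The genotypes overlapped, and the log2FC was 0.82 (SE 0.56). Dpp4 and Fap did not pass the filter. Dpp4, which inactivates incretins, had 8, 5, 7 and 2 counts in SLMAP3-/- lines and 3, 0, 6 and 1 in WT lines. The count of 0 in WT replicate 2 allows up to 0.0580 CPM (3 counts, for counting error only). Fap, a collagen-processing peptidase of activated fibroblasts, had 6, 17, 5 and 7 counts in SLMAP3-/- lines and 5, 3, 11 and 14 in WT lines. With no more than 17 counts in any line, neither gene was tested in the main fit, and no difference is read from these counts. Neither serine peptidase of the surface was well expressed in these fibroblasts.

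Levels were compared between genes per kilobase of the longest annotated transcript, an approximation because the lengths used in the counting were not at hand. Ece1 led with 72.8 ± 8.11 CPM per kb (SD, n = 8), followed by Mme with 17.2 ± 6.59 (SD, n = 8) and Anpep with 3.02 ± 1.63 (SD, n = 8). Ece2 had 2.47 ± 0.938 (SD, n = 8) and was in no fixed order with Anpep, lying below it in 5 of 8 lines. The means of Ece2 and Anpep were 1.91 and 3.42 in SLMAP3-/- lines, and 3.03 and 2.63 in WT lines. Their order by mean thus differed between the genotypes, as values without a test. Enpep, at 0.157 CPM per kb, and Ace, at 0.147, were likewise in no fixed order, with Ace the lower in 3 of 8 lines. Without SLMAP3-/- replicate 3 the level of Enpep was 0.0667 CPM per kb. Fap (0.0542) lay below Ace in 8 of 8 lines, and Dpp4 (0.0135) below Fap in 8 of 8. The order of Dpp4 and Fap rests on few counts and on this choice of length. In SLMAP3-/- replicates 1 and 3 Dpp4 had more counts, 8 and 7 against 6 and 5 of Fap. Ece1 and Mme exceeded the gene after them in all 8 lines. Of the summed level per kilobase of the 8 genes, Mme made up 19.5% to 26.9% where SLMAP3 was absent and 9.71% to 15.4% in WT, while Ece1 made up 66.3% to 77.3% and 77.7% to 83.9%, respectively.

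The members differed in how much they varied between lines of a genotype, a measure that the choice of genes did not use. The within-genotype SD of log2 CPM was 0.17 for Ece1, 0.35 for Mme, 0.48 for Ece2, 0.75 for Anpep, 0.83 for Ace and 1.46 for Enpep. Against the 500 tested genes nearest in level, Mme was more variable than 88.4% and Ece1 than 42.4%, and Anpep (87.4%) and Enpep (91.2%) were also among the more variable ones. The highest line had 1.39 times the CPM of the lowest for Ece1, 3.80 times for Mme and 31.9 times for Enpep. Deviations from the genotype means were then compared between the 6 tested genes over the 8 lines. None of the 15 pairs was correlated at an adjusted p under 0.05 in a two-sided exact permutation test within genotypes, where the lowest possible p is 0.00174. The closest was Ece1 with Enpep (Pearson r = -0.62, p = 0.0139, adjusted p = 0.208 over the 15 pairs by exact permutation; rho = -0.60, p = 0.212), and r was -0.063 without the 2 lines farthest from the median. Mme had r between -0.17 and 0.49 with the other 5.

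Outside the family, the genes whose log2 CPM followed Mme most closely over the 8 lines were Clec2d (Pearson r = 0.94), Clasrp (0.93), Rtn4rl2 (0.93), Map3k5 (0.92) and Ehmt2 (0.91). Map3k5 encodes the stress kinase ASK1 and Ehmt2 the histone methyltransferase G9a. The most opposed were Phf6 (-0.92), Ddias (-0.92), Rpn1 (-0.90), Dst (-0.90) and Slc4a7 (-0.90), the last a sodium bicarbonate transporter. All 10 were picked for this likeness from the tested genes, so no p is given. The 8 values share the split by genotype and the low Mme value of WT replicate 1. Without that line the r of the first 5 was 0.82 to 0.87 and that of the opposed 5 was -0.90 to -0.76. Within genotypes, with all 8 lines and so with WT replicate 1 kept, r ranged from 0.63 (Ehmt2) to 0.94 (Map3k5) for the first 5. For the opposed 5 it ranged from -0.93 (Rpn1) to -0.59 (Slc4a7). Among the peptidases the r with Mme over the 8 lines was highest for Ace (0.49) and lowest for Ece2 (-0.48).

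**Figure D3:**
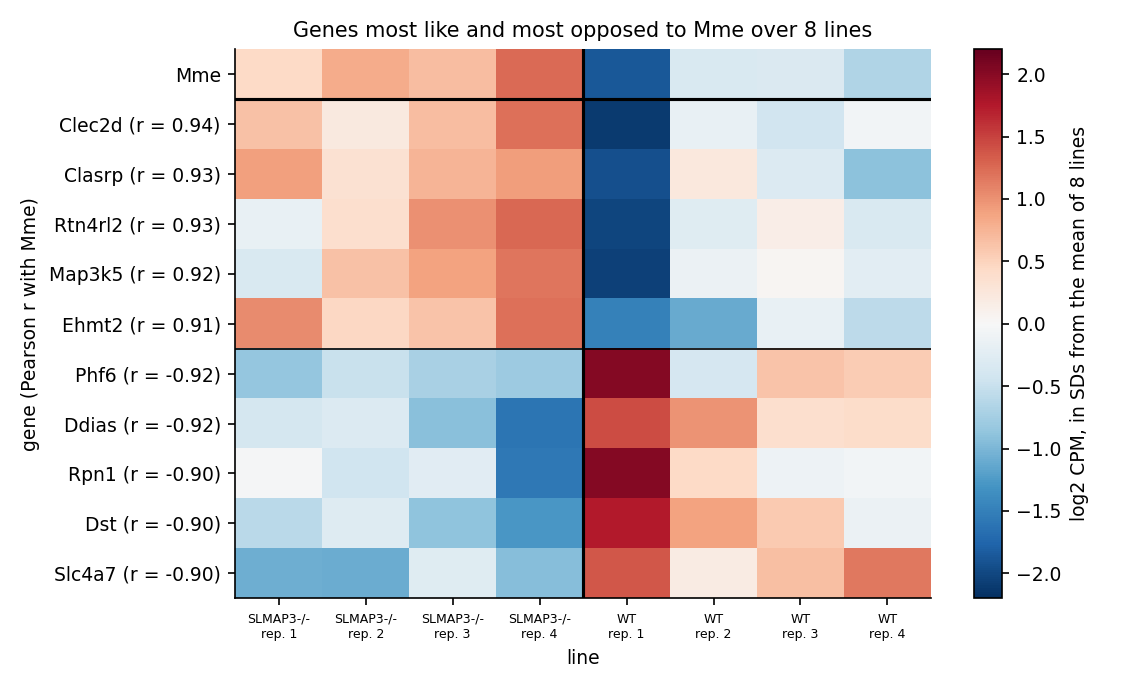
Heat map of log2 CPM in SDs from the mean of the 8 lines, with lines in columns and genes in rows, for Mme, the 5 genes most like it and the 5 most opposed to it, each with its Pearson r. WT replicate 1 shows the lowest value of Mme and of each of the 5 like genes, and the highest of each of the 5 opposed genes.

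The question of whether peptide handling as a whole differed was put to 96 genes in 8 lists of related enzymes, peptides and receptors, of which 62 passed the filter and were tested. None had an adjusted p under 0.05 in edgeR, as against 0.00647% of all tested genes. DESeq2 called 0 of the tested list genes against 0.0325% of all genes with an adjusted p, and limma-voom called 0 against 0.00647%. An unadjusted p under 0.05 in edgeR was found for 2 of the 62, Ednrb and Ada, both higher in SLMAP3-/- lines, or 3.23% beside 1.81% of all tested genes. The median log2FC of the 62 was -0.012, with 30 above 0 and 32 below, and that of all tested genes was -0.0014. For the 6 peptidases tested it was 0.60, and 0.38 without Mme, values that the choice of genes bears on and that rest on SLMAP3-/- replicate 3. Without that line these medians were -0.069 and -0.13.

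For the other peptidases of the same families no difference was called. Of the M1 aminopeptidases, 8 of 9 were tested and 0 passed, with log2FCs from -0.33 to 0.18. Lnpep, the insulin-regulated aminopeptidase, had 126 ± 20.3 CPM (SD, n = 4) against 136 ± 10.8 (SD, n = 4) in WT, and Npepps, a cytosolic enzyme, 117 ± 12.0 (SD, n = 4) against 114 ± 13.7 (SD, n = 4). Of the S9 family, 5 of 7 were tested and 0 passed, with log2FCs from -0.21 to 0.11, among them the cytosolic Prep at -0.093 (SE 0.20) and Dpp8 at -0.023 (0.075). The S9 members of the cytosol were thus expressed where Dpp4 and Fap were nearly absent. Of the other M13 genes only Phex, the phosphate regulator, was tested (log2FC -0.96, SE 0.56, and -1.71 without SLMAP3-/- replicate 3), on 5 to 38 counts, and Ecel1 had no more than 20. A wider list of 25 enzymes that process peptides had 18 tested and 0 passed, with 9 on each side of 0 and a median log2FC of 0.0042. Its most abundant members were the carboxypeptidases Cpe (log2FC 0.092, SE 0.23) and Cpd (-0.13, 0.098).

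In the endothelin system, the peptides that Ece1 activates and their receptors, 3 of 5 genes were tested and 0 passed. Ednrb, the endothelin B receptor, had 9.57, 14.8, 6.52 and 2.05 CPM in SLMAP3-/- replicates 1 to 4 and 2.82, 3.23, 1.82 and 1.51 CPM in WT replicates 1 to 4. Replicates 1 to 3 of SLMAP3-/- lay above all WT lines, and replicate 4 lay among them. Its log2FC was 1.81 (SE 0.55; unadjusted p = 0.00986, adjusted p = 1.00, edgeR), and the adjusted p ranged from 0.463 to 1.00 over 16 alternatives. Edn1, the endothelin-1 precursor, was at 5.87 ± 4.86 CPM (SD, n = 4) against 2.85 ± 1.44 (SD, n = 4), at a log2FC of 1.04 (SE 0.64). SLMAP3-/- replicate 4, at 12.8 CPM, weighed most on that value, and the log2FC was 0.32 without it. Without any other single line it was 0.80 (WT replicate 3 left out) to 1.37 (SLMAP3-/- replicate 3 left out). Ednra, the other receptor, had a log2FC of -0.41 (SE 0.50).

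The angiotensin system was almost silent. Of 10 genes, 3 were tested and 0 passed, and Agt, the precursor of all angiotensins, did not exceed 2 counts in any line. Agtr1a, the main angiotensin II receptor, had 2.06 ± 1.40 CPM (SD, n = 4) in SLMAP3-/- against 1.12 ± 0.622 (SD, n = 4) in WT lines, at a log2FC of 0.88 (SE 0.65) that was 0.30 without SLMAP3-/- replicate 1. Atp6ap2, the prorenin receptor and a part of the proton pump, had 147 ± 14.7 CPM (SD, n = 4) and 152 ± 11.6 (SD, n = 4).

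Of 28 other substrates and receptors, 17 were tested and 0 passed, with 10 above 0 and 7 below. App, the precursor of amyloid-beta, was abundant at 1131 ± 261 CPM (SD, n = 4) against 1320 ± 266 (SD, n = 4) in WT. Cxcl12, a chemokine that Dpp4 can truncate, had 256 ± 110 CPM (SD, n = 4) and 206 ± 71.9 (SD, n = 4), with overlapping lines. The receptors for kinins and substance P were barely expressed, with at most 2 counts for Bdkrb1, 67 for Bdkrb2 and 8 for Tacr1.

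Among 8 genes listed as binding partners and substrates of the proteins of Dpp4 and Fap, 7 were tested and 0 passed. Ada encodes adenosine deaminase, which binds the human DPP4 protein, a binding not examined in these mouse cells. It had 26.8, 35.3, 23.6 and 29.7 CPM in SLMAP3-/- lines and 19.6, 27.2, 21.0 and 15.2 CPM in WT lines. Only WT replicate 2 reached into the SLMAP3-/- range, and the log2FC was 0.48 (SE 0.19; unadjusted p = 0.0380, adjusted p = 1.00, edgeR). The unadjusted p was under 0.05 in 11 of 16 alternatives, and the adjusted p ranged from 0.786 to 1.00. Fn1 and Itgb1, the most abundant of the list, had log2FCs of -0.20 (SE 0.18) and 0.011 (0.14). With single lines left out, Fn1 stayed below 0, from -0.37 (without SLMAP3-/- replicate 3) to -0.090 (without WT replicate 4). Itgb1 ranged from -0.069 to 0.097.

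**Figure D4:**
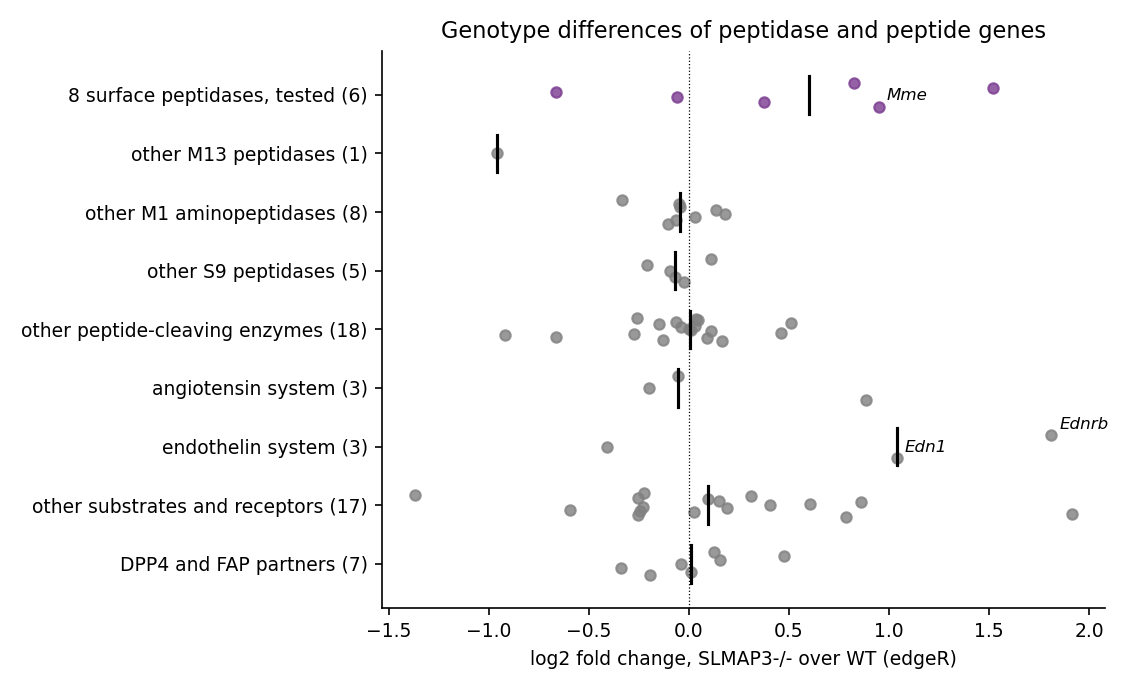
Log2FC (SLMAP3-/- over WT, edgeR) of each tested gene, 1 row for the 6 tested surface peptidases (purple) and for each of 8 lists of related genes (grey), with the number tested in parentheses and the median as a black bar. The 8 M1 aminopeptidases lie between -0.33 and 0.18, Mme at 0.95 and Ednrb at 1.81.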

How the data were processed

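RNA-seq of 4 SLMAP3-/- and 4 WT lines was analysed, with the genotype and replicate number of each line taken from its sample label. The authors aligned reads to a GENCODE M25 transcriptome of GRCm38 with Salmon (version not given in the sources used here) and deposited estimated counts per gene, scaled for transcript length but not between libraries. Salmon divides reads between similar transcripts, and whether the counting used strand is not given in the sources used here. The deposited table of the authors' own comparison (fold changes and p-values from DESeq2) was not used, and 0 columns of the counts table were unassigned.

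Estimated counts were rounded. In R 4.3.3, edgeR 4.0.16 kept genes by filterByExpr with a minimum count of 10, scaled libraries by TMM and compared genotypes by the quasi-likelihood test without covariates, adjusting p by Benjamini-Hochberg across the tested genes (threshold 0.05). Standard errors came from the log2 fold change and F statistic, and log2 CPM used a prior count of 2. DESeq2 1.42.0 and limma-voom (limma 3.58.1) were alternatives, as were other size factors, filters, unrounded counts, a Y-linked covariate, a replicate block and leaving out each line. The edgeR, DESeq2 and limma-voom fits with their main settings were tested on simulated counts, and the other alternatives were not. P-values of the genotype comparison set each difference against the spread between these lines. Positions and sequences came from GENCODE M21, of the same build.

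The 8 genes and the 8 lists (other M13, M1 and S9 peptidases, other peptide-processing enzymes, the angiotensin and endothelin systems, other substrates and receptors, and partners of Dpp4 and Fap) were chosen with earlier results of these data known. Named by rule were the 8 genes, Slmap, list genes with an unadjusted p under 0.05, the 2 most abundant of each list, 8 receptors, ligands and enzymes (1 of them not reported here), and the 5 genes most and least like Mme among those with a mean of at least 1 CPM. Cell type markers and low-count list genes with their counts, such as Agt, were named besides.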

Additional observations from a re-analysis of the deposited data

Results flagged for a closer look

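A line far from the other 3 of its genotype, by its gap to the nearest of them divided by the group's range, was found in 8 of 80 groups of 4 lines (40 named genes). Chance gives 4 for normally distributed values, which the lowest counts are not. Enpep was flagged in both genotypes, with a ratio of 0.943 for SLMAP3-/- replicate 3 (3.31 CPM against 0.104 to 0.288) and 0.926 for WT replicate 1 (0.516 CPM against 0.271 to 0.289). Agtr1a was also flagged in both, with 0.834 for SLMAP3-/- replicate 1 (4.14 CPM against 1.07 to 1.58) and 0.861 for WT replicate 1, the lowest of its group (0.194 CPM against 1.34 to 1.53). SLMAP3-/- replicate 3 was highest for Phex (ratio 0.838) and for Slc4a7 (0.833), and lowest for Bdkrb1 (0.865), where it had 0 and the others no more than 0.0200 CPM. That flag is a count of 0 against 1 in each other SLMAP3-/- line, too few to set a line apart. SLMAP3-/- replicate 2 was highest for Bdkrb2 (ratio 0.842), at 1.34 CPM against 0.0575 to 0.260. Mme was flagged in neither genotype.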

How the results depend on the processing

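Mme kept its direction in all 16 alternatives, with log2 fold changes of 0.78 (without WT replicate 1) to 1.04, and Ace and Ece2 kept theirs. For Mme every SLMAP3-/- line lay above every WT line, so leaving out a line could not have reversed its sign. The kept direction of Mme is therefore no further support. Anpep and Ece1 each changed sign when 1 line was left out, and Enpep fell to -0.79 without SLMAP3-/- replicate 3. DESeq2 gave no p for Enpep, and a minimum of 10 counts in every line left it out, since SLMAP3-/- replicate 1 had 6. DESeq2 called 11 genes in all against 1 in edgeR. The number of list genes with an unadjusted p under 0.05, 2 in edgeR, was 5 without a filter and 1 to 6 with 1 line left out, 6 without SLMAP3-/- replicate 3, 5 without replicate 1 and 1 without replicate 2 or 4 of that genotype, and 4 without WT replicate 1 or 2. With the length of all exons in place of the longest transcript, the level was 12.0 CPM per kb for Mme, 1.66 for Ece2 and 0.0275 for Fap (0.0542 with the longest transcript). The order of the 8 genes by mean was the same, although Dpp4 then lay above Fap in SLMAP3-/- replicates 1 and 3. Leaving out lines for single list genes and for the medians of the peptidases was chosen after seeing the data. The cause of these shifts was not tested.

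Lines that share a replicate number came from different embryos, and the correlations of their deviations were -0.16, 0.058, 0.19 and -0.0032, so the numbers do not pair the lines. The names of SLMAP3-/- replicate 3 and WT replicate 4 share a number whose meaning the labels do not give, and their deviations correlated at 0.13. With the replicate number as a block, 0 genes passed and the unadjusted p of 4 list genes was under 0.05, while the log2 fold change of Mme was 0.98. Counting error bears on Dpp4, Fap, Ace and Enpep. The spread between 4 lines bears on the 6 tested genes, Ace and Enpep among them.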

Other observations

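Some genes of the peptide lists varied widely between lines of both genotypes. These genes were chosen after their values were seen. Penk, the precursor of the enkephalins that neprilysin degrades, ranged from 11.3 to 431 CPM over SLMAP3-/- lines and from 7.01 to 316 CPM over WT lines (log2 fold change -0.26, standard error 1.13). Vipr2, a receptor for vasoactive intestinal peptide, ranged from 0.0192 to 20.2 CPM and from 0.0968 to 17.3 CPM. Pcsk6, a proprotein convertase, ranged from 55.0 to 245 CPM and from 20.7 to 181 CPM. For each of these genes the ranges of the genotypes overlapped.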
